A study of Oryza sativa with 8 samples.

Results

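The CIPKs are a family of rice protein kinases, the CBL-interacting protein kinases, and their messenger RNA levels were followed here in shoots of 2 rice genotypes before and after complete submergence. Members were the genes whose symbol or synonym is one of the 33 names from CIPK1 to CIPK33, each read by 1 probe set that is paired with that gene alone. Where a gene had several such probe sets, the one with the highest mean over the 8 arrays was used. The gene table held 30 genes with such a name, and 24 of them had a probe set, of 17905 genes on the array that are named by a pairing with 1 gene. The 24 genes were read by 34 probe sets, since 7 of them had more than 1.

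A CIPK is a serine/threonine kinase that is held inactive by its own regulatory domain. A calcineurin B-like protein, or CBL, is a calcium sensor that binds to this domain when calcium rises and switches the kinase on, often bringing it to a membrane. CBL-CIPK pairs are known for setting the activity of potassium, sodium and nitrate transporters and for responses to salt, drought and low nutrient supply. In rice, CIPK15 is known for linking low oxygen to sugar starvation signalling through the kinase SNRK1A and the transcription factor MYBS1, which switches on alpha-amylase genes.

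The study measured messenger RNA in aerial tissue of rice plants aged 14 days with Affymetrix rice arrays. M202 is a cultivar that the labels mark as lacking Sub1A and as intolerant of submergence. M202(Sub1), marked as carrying Sub1A and as tolerant, is M202 with the SUB1 region of a tolerant rice introgressed. Each genotype was sampled without submergence and after 24 h completely under 90 cm of deionized water, with 2 arrays per group and 8 arrays in all. The titles place the non-submerged plants at day 0 and the submerged plants at day 1, so 1 day of age goes along with submergence and cannot be told apart from it. All plants shared the greenhouse and pots of 25 plants, and nothing in the labels says how many plants went into an array. The design text calls the replicates biological and independent but not whether they were separate plants, pots or days, so each p-value measures only the spread between these samples. As the tissue is a mixture of cells, fewer cells of a type and less RNA per cell cannot be told apart in any value below.

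Levels are the deposited log2 values, on which a difference of 1 is a factor of 2 and the lowest value is a floor of 2.22 shared by all arrays. The 2 arrays of a group correlated at 0.9985 to 0.9989 across probe sets, and 37.3% to 38.8% of each array's values lay at the floor. A probe set was tested if its mean over the 8 arrays reached 2.23, which left 34355. Of 7 green tissue marker genes, none was near the floor. Their summed level was 18.5 to 18.6 on log2 scale without submergence and 18.1 to 18.2 with it. The green sum follows the most abundant markers, RBCS, CAB2R and RCA, and other markers fell by more. The single changes ran from -2.90 to 0.02 in M202 (median -0.60) and from -3.09 to -0.08 in M202(Sub1) (median -0.73). CHLI had the lowest, with means going from 7.21 to 4.31 in M202 and from 7.18 to 4.09 in M202(Sub1). Of 7 root marker genes, LSI2 and NRT2.2 were near the floor in all groups. The summed root marker level was 12.5 on both non-submerged M202 arrays and 12.0 on both submerged ones. It was 12.1 and 12.2 on the non-submerged M202(Sub1) arrays and 11.35 on each submerged one. This sum follows the most abundant marker, NAS3, and single root markers differed in direction. NAS3 changed by -0.80 in M202 and -1.12 in M202(Sub1), IRT1 by -0.46 and -1.01, LSI1 by 0.20 and -0.56, PHT1-8 by 0.36 and 1.08, and NRT2.3 by 0.67 and 3.19. The part of these marker shifts in the results was not tested.

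Of the 24 CIPK genes, 23 passed the filter on low values. CIPK30 stood at 2.22 on all 8 arrays and was not tested. CIPK20 passed, yet its level was 2.64 and 2.24 on the non-submerged M202 arrays and no higher than 2.32 elsewhere, so it lay close to the floor throughout. The genes of CIPK3 on chromosome 7, CIPK9, CIPK13, CIPK15, CIPK27 and CIPK33 had no probe set paired with them alone and are not analysed here. No gene was matched to CIPK4 or CIPK28, the name CIPK22 is a synonym of the CIPK18 gene, and the CIPK31 gene on chromosome 3 carries CIPK3 as a further name.

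**Figure D1:**
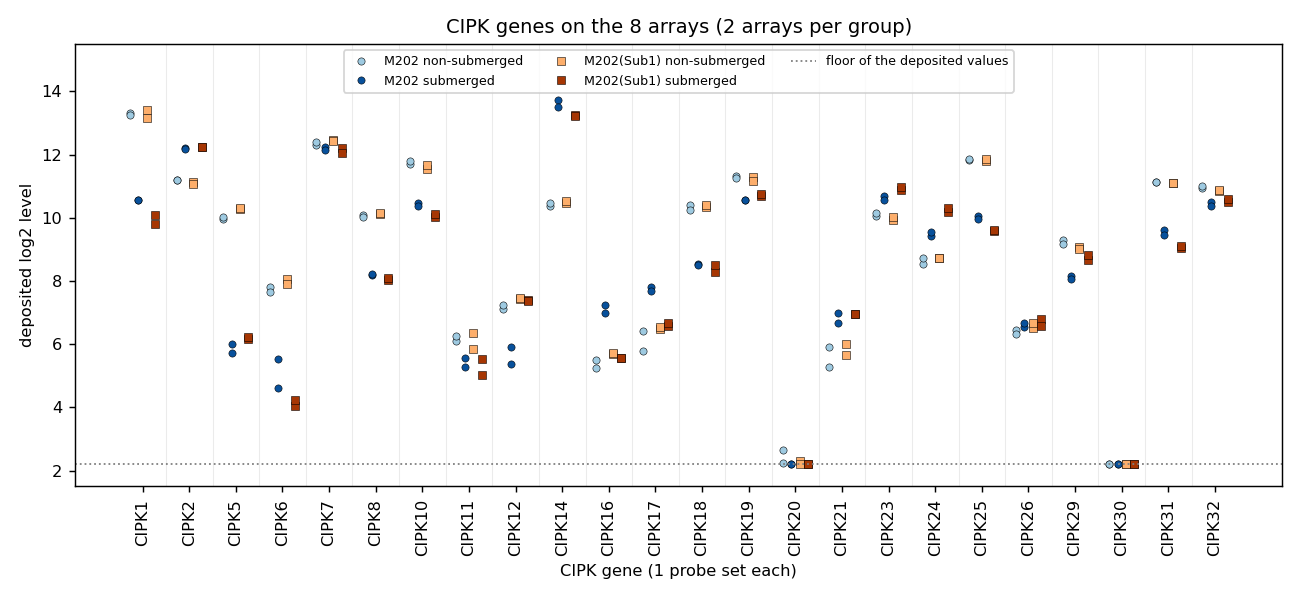
Deposited log2 level (vertical axis) of each of the 24 CIPK genes (horizontal axis), with 1 point per array and a colour per group. The 2 arrays of a group lie close together for most genes, CIPK30 sits at the floor of 2.22, and the separation between submerged and non-submerged arrays is widest for CIPK5.

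Submergence moved most of the measured family, and more members fell than rose. In M202, 7 of 23 tested members rose (30.4%), 12 fell (52.2%) and 4 did not pass the test, beside 22.9% higher and 20.0% lower over all probe sets tested. In M202(Sub1), 5 rose (21.7%), 13 fell (56.5%) and 5 did not pass, beside 27.7% higher and 21.2% lower over all probe sets. A call here is a limma adjusted p below 0.05, with adjustment over all 34355 probe sets. With a stricter filter at the 60th percentile, 35.0% of all probe sets tested were higher and 29.8% lower in M202. In M202(Sub1) the shares were 41.1% and 31.1%. Under that filter 7 members were higher and 13 lower in M202, and 5 and 13 in M202(Sub1). The members that rose, 30.4% and 21.7% of 23, lie near that share of higher probe sets in M202 and below it in M202(Sub1). Those percentages are of all 23 members, not all of which passed the stricter filter. The median change of the tested members was -0.72 in M202 and -0.32 in M202(Sub1), against 0 over all probe sets in each. Both comparisons have their own control arrays, and 5 members were called higher and 11 lower in both genotypes. How many of all probe sets were called the same way in both genotypes was not counted.

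The balance of higher and lower calls depends on how arrays are scaled. With the arrays centred on the poly(A) spike-in controls instead, the median change of all probe sets was -0.19 for M202 and -0.40 for M202(Sub1). The share of calls that were higher over all probe sets then went from 53.5% to 33.3% in M202 and from 56.6% to 23.4% in M202(Sub1). Relative to the spike-ins, 7 members were higher and 15 lower in M202, and 5 were higher and 16 lower in M202(Sub1). On that scale, 18.5% of all probe sets tested were higher and 37.0% lower in M202, and 18.5% were higher and 60.5% lower in M202(Sub1), so the 69.6% of members that were lower in M202(Sub1) lie near that share.

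CIPK14 had the largest rise of the family in both genotypes. CIPK14 is closely related to CIPK15, and both kinases have been studied in rice defence responses to microbial elicitors. Its level was 10.37 and 10.48 on the non-submerged M202 arrays, 13.74 and 13.50 on the submerged M202 arrays, 10.47 and 10.53 on the non-submerged M202(Sub1) arrays, and 13.27 and 13.21 on the submerged M202(Sub1) arrays. All 4 submerged arrays lay above all 4 non-submerged ones, and the submerged M202 arrays were the highest. The rise was 3.20 ± 0.09 (SE, n = 2 per group, limma adjusted p = 1.26e-05), or 9.16-fold, in M202 and 2.73 ± 0.09 (adjusted p = 1.58e-05), or 6.65-fold, in M202(Sub1). The difference between the genotypes' responses, -0.46 ± 0.13, did not pass the test (adjusted p = 0.0871). It passed without the submerged M202 replicate 2, at -0.58 (adjusted p = 0.0374). The CIPK14 probe set has a suffix that marks several transcripts of one gene, and whether it also reads CIPK15 transcripts was not tested.

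CIPK2, CIPK24, CIPK23 and CIPK21 rose in both genotypes too. CIPK2 read 11.19 on each non-submerged M202 array, 12.20 and 12.19 on the submerged M202 arrays, 11.14 and 11.06 on the non-submerged M202(Sub1) arrays, and 12.24 and 12.25 on the submerged M202(Sub1) arrays. The submerged arrays of the genotypes lay within 0.1 of each other, well above all 4 controls, with a rise of 1.00 ± 0.03 in M202 (limma adjusted p = 1.83e-05) and 1.15 ± 0.03 in M202(Sub1) (adjusted p = 9.61e-06). The CIPK2 probe set has a suffix that marks probes that may also bind other transcripts, which was not tested. CIPK24, the rice counterpart of the salt tolerance kinase SOS2 of Arabidopsis, read 8.54 and 8.73 on the non-submerged M202 arrays, 9.44 and 9.54 on the submerged M202 arrays, 8.72 and 8.74 on the non-submerged M202(Sub1) arrays, and 10.17 and 10.33 on the submerged M202(Sub1) arrays. The non-submerged arrays of the genotypes lay close together and the submerged M202(Sub1) arrays were the highest. CIPK24 rose by 0.85 ± 0.08 in M202 (adjusted p = 0.000896) and by 1.52 ± 0.08 in M202(Sub1) (adjusted p = 8.59e-05).

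CIPK23 is the kinase that, with CBL1, activates the potassium channel AKT1 in rice roots. It read 10.06 and 10.15 on the non-submerged M202 arrays, 10.69 and 10.56 on the submerged M202 arrays, 9.92 and 10.02 on the non-submerged M202(Sub1) arrays, and 10.89 and 10.98 on the submerged M202(Sub1) arrays. All submerged arrays lay above all controls, with a rise of 0.52 ± 0.07 in M202 (limma adjusted p = 0.00237) and 0.96 ± 0.07 in M202(Sub1) (adjusted p = 0.000186). CIPK21 read 5.91 and 5.29 on the non-submerged M202 arrays, 6.98 and 6.68 on the submerged M202 arrays, 5.65 and 6.01 on the non-submerged M202(Sub1) arrays, and 6.96 on each submerged M202(Sub1) array. Its controls were spread over a wider range than those of the other risers, but none reached a submerged array. The rise of CIPK21 was 1.23 ± 0.25 in M202 (adjusted p = 0.013) and 1.13 ± 0.25 in M202(Sub1) (adjusted p = 0.0151). Without the submerged M202 replicate 1, its M202 call was lost (adjusted p = 0.0715). Its M202(Sub1) call was lost without the non-submerged M202(Sub1) replicate 1 or either submerged M202(Sub1) array (adjusted p = 0.07 to 0.0786).

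CIPK5 had the largest fall in both genotypes. It read 9.96 and 10.04 on the non-submerged M202 arrays, 5.74 and 5.99 on the submerged M202 arrays, 10.29 and 10.30 on the non-submerged M202(Sub1) arrays, and 6.17 and 6.23 on the submerged M202(Sub1) arrays. The controls lay far above the submerged arrays, and within each treatment M202(Sub1) read a little higher than M202. The change was -4.13 ± 0.09 in M202 (limma adjusted p = 6.75e-06), or 17.5-fold lower, and -4.10 ± 0.09 in M202(Sub1) (adjusted p = 5.39e-06), or 17.1-fold lower. The responses of the genotypes differed by 0.03 ± 0.13 (adjusted p = 0.904).

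CIPK6 and CIPK1 followed in size. CIPK6 read 7.83 and 7.64 on the non-submerged M202 arrays, 4.62 and 5.53 on the submerged M202 arrays, 8.08 and 7.89 on the non-submerged M202(Sub1) arrays, and 4.05 and 4.23 on the submerged M202(Sub1) arrays. The submerged M202 arrays were 0.91 apart, and both lay above the submerged M202(Sub1) arrays. The change of CIPK6 was -2.66 ± 0.31 in M202 (limma adjusted p = 0.00158) and -3.85 ± 0.31 in M202(Sub1) (adjusted p = 0.000313). The difference of -1.19 ± 0.43 did not pass the test (adjusted p = 0.164), and without the submerged M202 replicate 1 it was -1.64 and passed (adjusted p = 0.0218). Without the submerged M202 replicate 2, the CIPK6 difference was -0.74 (adjusted p = 0.111).

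CIPK1 read 13.31 and 13.26 on the non-submerged M202 arrays, 10.57 on each submerged M202 array, 13.40 and 13.15 on the non-submerged M202(Sub1) arrays, and 10.10 and 9.81 on the submerged M202(Sub1) arrays. Controls of the genotypes overlapped, and the submerged M202(Sub1) arrays were the lowest. The change was -2.71 ± 0.12 in M202 (limma adjusted p = 5.25e-05) and -3.32 ± 0.12 in M202(Sub1) (adjusted p = 2.14e-05). Their difference of -0.60 ± 0.17 did not pass (adjusted p = 0.094).

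CIPK8, CIPK18 and CIPK10 fell in both genotypes as well. CIPK8 read 10.09 and 10.04 on the non-submerged M202 arrays, 8.19 and 8.21 on the submerged M202 arrays, 10.12 and 10.15 on the non-submerged M202(Sub1) arrays, and 8.05 and 8.10 on the submerged M202(Sub1) arrays. It changed by -1.86 ± 0.03 in M202 (limma adjusted p = 4.48e-06) and by -2.07 ± 0.03 in M202(Sub1) (adjusted p = 2.66e-06), with no overlap of treatments. CIPK18 read 10.39 and 10.26 on the non-submerged M202 arrays, 8.53 and 8.52 on the submerged M202 arrays, 10.33 and 10.41 on the non-submerged M202(Sub1) arrays, and 8.29 and 8.50 on the submerged M202(Sub1) arrays. Its change was -1.80 ± 0.09 in M202 (adjusted p = 6.58e-05) and -1.98 ± 0.09 in M202(Sub1) (adjusted p = 3.7e-05), and again the treatments lay apart. CIPK10 read 11.69 and 11.79 on the non-submerged M202 arrays, 10.45 and 10.36 on the submerged M202 arrays, 11.55 and 11.66 on the non-submerged M202(Sub1) arrays, and 10.01 and 10.11 on the submerged M202(Sub1) arrays. It changed by -1.33 ± 0.06 in M202 (adjusted p = 6.89e-05) and by -1.55 ± 0.06 in M202(Sub1) (adjusted p = 3.26e-05), and the submerged M202(Sub1) arrays were the lowest.

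CIPK19 and CIPK32 fell by less. CIPK19 read 11.31 and 11.27 on the non-submerged M202 arrays, 10.57 and 10.56 on the submerged M202 arrays, 11.29 and 11.16 on the non-submerged M202(Sub1) arrays, and 10.69 and 10.75 on the submerged M202(Sub1) arrays. Treatments did not overlap, with a change of -0.72 ± 0.05 in M202 (limma adjusted p = 0.000238) and -0.50 ± 0.05 in M202(Sub1) (adjusted p = 0.000731). CIPK32 read 10.96 and 11.00 on the non-submerged M202 arrays, 10.50 and 10.37 on the submerged M202 arrays, 10.86 and 10.88 on the non-submerged M202(Sub1) arrays, and 10.49 and 10.60 on the submerged M202(Sub1) arrays. The 4 submerged arrays overlapped between the genotypes and lay below all controls, with a change of -0.54 ± 0.06 in M202 (adjusted p = 0.00117) and -0.33 ± 0.06 in M202(Sub1) (adjusted p = 0.00676).

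CIPK7 and CIPK11 were called lower in M202(Sub1) and not in M202, and their responses were not shown to differ between the genotypes, since neither passed the interaction test. CIPK7 read 12.32 and 12.39 on the non-submerged M202 arrays, 12.24 and 12.15 on the submerged M202 arrays, 12.45 and 12.42 on the non-submerged M202(Sub1) arrays, and 12.22 and 12.04 on the submerged M202(Sub1) arrays. All submerged arrays lay below all controls by a small margin, and the change was -0.16 ± 0.07 in M202 (limma adjusted p = 0.132) and -0.30 ± 0.07 in M202(Sub1) (adjusted p = 0.0159). The M202(Sub1) call of CIPK7 was lost without either non-submerged M202(Sub1) array (adjusted p = 0.0623 and 0.077).

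CIPK11 read 6.12 and 6.27 on the non-submerged M202 arrays, 5.30 and 5.58 on the submerged M202 arrays, 5.85 and 6.36 on the non-submerged M202(Sub1) arrays, and 5.54 and 5.03 on the submerged M202(Sub1) arrays. All submerged arrays lay below all controls, with wide gaps between arrays of a group in M202(Sub1). Its change was -0.76 ± 0.25 in M202 (limma adjusted p = 0.0692) and -0.82 ± 0.25 in M202(Sub1) (adjusted p = 0.0476). The M202(Sub1) call of CIPK11 was lost without any of the 6 arrays other than the non-submerged M202(Sub1) replicate 1 and the submerged M202(Sub1) replicate 1 (adjusted p = 0.0793 to 0.192). Its probe set has a suffix that marks possible matches to several genes. CIPK26, read at 6.31 to 6.81 on all 8 arrays, and CIPK20 passed the test in neither genotype.

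**Figure D2:**
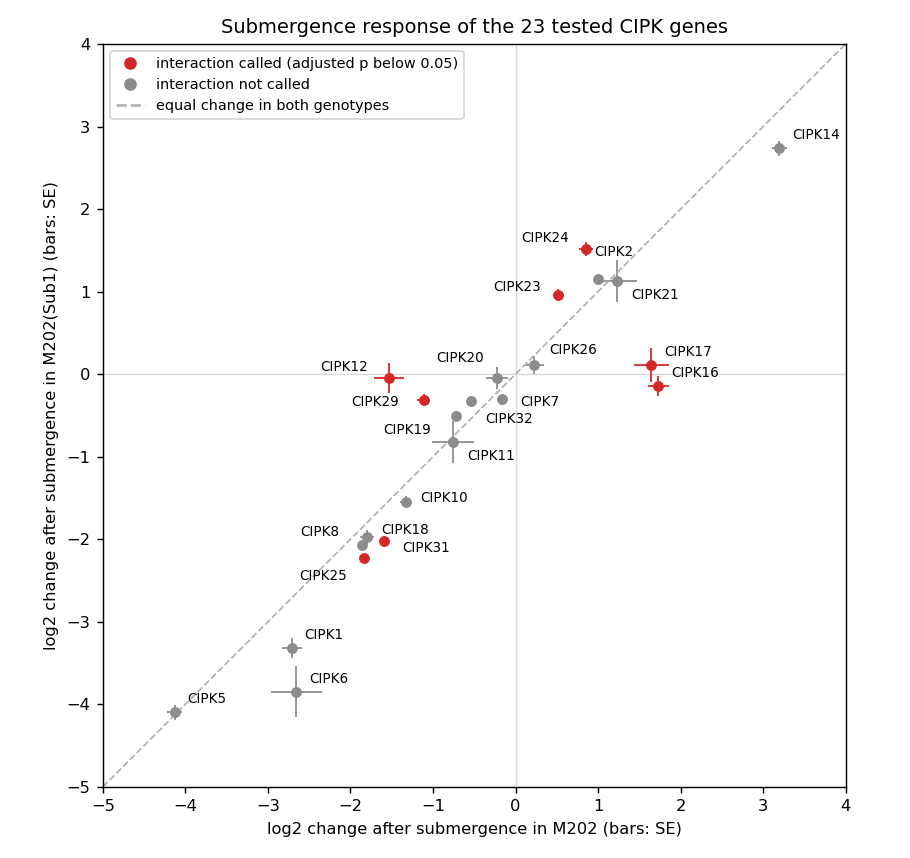
Log2 change after submergence in M202 (horizontal axis) and in M202(Sub1) (vertical axis) for the 23 tested CIPK genes, with bars of 1 SE and a diagonal of equal change. CIPK5, at -4.13 and -4.10, lies on the diagonal, whereas CIPK16, CIPK17 and CIPK12 lie well off it, near 0 on the M202(Sub1) axis.

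Whether submergence acted differently in the genotypes was tested as an interaction, the response in M202(Sub1) minus that in M202. Of the 23 tested members, 4 passed with a higher response in M202(Sub1) (17.4%) and 4 with a lower one (17.4%), beside 6.36% higher and 5.93% lower over all probe sets. With the 60th percentile filter, 4 members passed higher and 6 lower, beside 11.6% and 10.7% of all probe sets tested. The members that passed were CIPK16 and CIPK17, CIPK12 and CIPK29, CIPK23 and CIPK24, and CIPK25 and CIPK31. For a single gene, the smallest two-sided p that an exact permutation test of 2 arrays against 2 can give is 0.333. That bound holds for a comparison of 2 groups and not for the interaction, which uses all 4 groups. Each of these calls rests mostly on the probe set's own spread within groups, which limma pools over the 4 groups. That spread has 4 residual degrees of freedom, and pooling over probe sets adds 0.99.

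CIPK16 and CIPK17 rose in M202 and showed no called change in M202(Sub1). CIPK16, on chromosome 9, stood at 5.26 and 5.51 on the non-submerged M202 arrays, 6.98 and 7.25 on the submerged M202 arrays, 5.69 and 5.72 on the non-submerged M202(Sub1) arrays, and 5.56 on each submerged M202(Sub1) array. The submerged M202 arrays were alone at a high level, and the other 6 lay within 0.46 of each other. CIPK16 rose by 1.73 ± 0.13 in M202 (limma adjusted p = 0.000286), or 3.32-fold, and its change in M202(Sub1) was -0.14 ± 0.13 (adjusted p = 0.411). The interaction of -1.87 ± 0.18 (adjusted p = 0.00631) passed under every alternative run, each array left out included. CIPK16 has 1 probe set, so a second one could not be tried. Its probe set has a suffix that marks probes that may also bind other transcripts, which was not tested.

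CIPK17, on chromosome 5, read 6.41 and 5.79 on the non-submerged M202 arrays, 7.81 and 7.69 on the submerged M202 arrays, 6.49 and 6.56 on the non-submerged M202(Sub1) arrays, and 6.59 and 6.68 on the submerged M202(Sub1) arrays. Again only the submerged M202 arrays stood high, and the non-submerged M202 arrays were 0.62 apart. CIPK17 rose by 1.65 ± 0.21 in M202 (limma adjusted p = 0.00214), or 3.13-fold, with a change of 0.11 ± 0.21 in M202(Sub1) (adjusted p = 0.75). The interaction of CIPK17 was -1.54 ± 0.29 (adjusted p = 0.0349), and it was lost without any of the 6 arrays other than the non-submerged M202 ones (adjusted p = 0.0846 to 0.0989).

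CIPK12 and CIPK29 fell in M202, and in M202(Sub1) CIPK29 fell by less and CIPK12 showed no called change. CIPK12, a kinase whose overexpression has been tied to drought tolerance in rice, read 7.11 and 7.24 on the non-submerged M202 arrays, 5.91 and 5.37 on the submerged M202 arrays, 7.42 and 7.46 on the non-submerged M202(Sub1) arrays, and 7.40 and 7.38 on the submerged M202(Sub1) arrays. The submerged M202 arrays were low and spread, while the 4 M202(Sub1) arrays lay within 0.1 of each other. CIPK12 changed by -1.53 ± 0.18 in M202 (limma adjusted p = 0.00177), or 2.90-fold lower, and by -0.05 ± 0.18 in M202(Sub1) (adjusted p = 0.92). The interaction of CIPK12, 1.48 ± 0.26 (adjusted p = 0.0279), was lost without any of the 6 arrays other than the submerged M202 ones (adjusted p = 0.0771 to 0.0899).

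CIPK29, on chromosome 7 with no other coding gene between it and CIPK2, read 9.29 and 9.18 on the non-submerged M202 arrays, 8.17 and 8.07 on the submerged M202 arrays, 9.09 and 9.02 on the non-submerged M202(Sub1) arrays, and 8.66 and 8.81 on the submerged M202(Sub1) arrays. Each submerged group lay below its own controls, and the submerged M202 arrays were the lowest. The change was -1.11 ± 0.07 in M202 (limma adjusted p = 0.000207) and -0.32 ± 0.07 in M202(Sub1) (adjusted p = 0.0184). The M202(Sub1) call was lost without either non-submerged M202(Sub1) array or the submerged M202(Sub1) replicate 1 (adjusted p = 0.0509 to 0.0887). The interaction of CIPK29, 0.80 ± 0.11 (adjusted p = 0.0135), passed under every alternative run, each array left out included. CIPK29 too has 1 probe set, so a second one could not be tried.

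CIPK23 and CIPK24, described above, rose in both genotypes and by more in M202(Sub1). For CIPK24 the interaction was 0.67 ± 0.12 (limma adjusted p = 0.0301), and it was lost without any of the 6 arrays other than the non-submerged M202 replicate 1 and the submerged M202(Sub1) replicate 1 (adjusted p = 0.0656 to 0.0827). For CIPK23 it was 0.44 ± 0.09 (adjusted p = 0.0461), and it was lost without any 1 of the 8 arrays (adjusted p = 0.0518 to 0.126). Relative to the spike-ins, the difference was 0.24 for CIPK23 (adjusted p = 0.19) and 0.46 for CIPK24 (adjusted p = 0.0516), so neither passed on that scale.

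CIPK25 and CIPK31 fell in both genotypes and by more in M202(Sub1). CIPK25 read 11.84 and 11.85 on the non-submerged M202 arrays, 10.06 and 9.97 on the submerged M202 arrays, 11.81 and 11.85 on the non-submerged M202(Sub1) arrays, and 9.59 and 9.60 on the submerged M202(Sub1) arrays. Controls of the genotypes overlapped, and the submerged groups lay apart. The change of CIPK25 was -1.83 ± 0.04 in M202 (limma adjusted p = 4.8e-06) and -2.23 ± 0.04 in M202(Sub1) (adjusted p = 2.48e-06). Its interaction of -0.40 ± 0.05 (adjusted p = 0.0119) passed under every alternative run. CIPK25 also has 1 probe set, so a second one could not be tried.

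CIPK31, also known as OsCK1 and described in rice as a kinase induced by stress, read 11.14 and 11.13 on the non-submerged M202 arrays, 9.63 and 9.45 on the submerged M202 arrays, 11.09 and 11.10 on the non-submerged M202(Sub1) arrays, and 9.04 and 9.09 on the submerged M202(Sub1) arrays. Its controls lay within 0.1 of each other and its submerged M202(Sub1) arrays were the lowest. The change was -1.60 ± 0.06 in M202 (limma adjusted p = 3.55e-05) and -2.03 ± 0.06 in M202(Sub1) (adjusted p = 1.35e-05). The interaction of CIPK31, -0.43 ± 0.09 (adjusted p = 0.0425), was lost without any of the 6 arrays other than the submerged M202 ones (adjusted p = 0.0914 to 0.12).

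**Figure D3:**
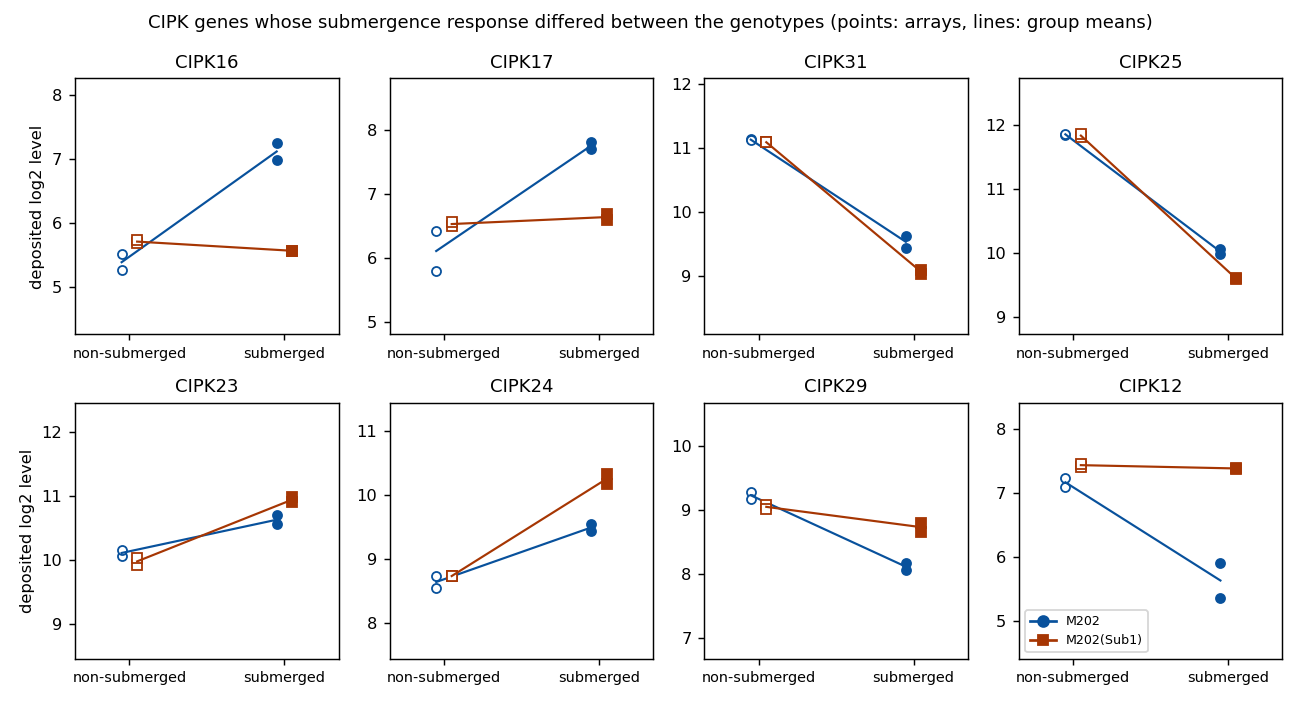
Deposited log2 level (vertical axes) of the 8 CIPK genes whose submergence response differed between the genotypes, without and with submergence (horizontal axes), with 1 point per array and lines joining group means. The lines of CIPK16 and CIPK17 climb and that of CIPK12 drops in M202 while they stay nearly level in M202(Sub1), and the other 5 move the same way in both genotypes by different amounts.

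Without submergence, no tested member passed the comparison of M202(Sub1) with M202, beside 0.684% higher and 1.23% lower over all probe sets. The differences ran from -0.18 to 0.42, and 2 of 23, CIPK2 and CIPK5, were below 0.05 in limma's test before adjustment. How many of all probe sets were below it was not counted. Without the non-submerged M202 replicate 1, the CIPK17 difference was 0.73. It was -0.38 for CIPK20 without the non-submerged M202 replicate 2 and -0.13 for CIPK2 without the non-submerged M202(Sub1) replicate 1. Each then passed, but leaving out any non-submerged array also brought more calls over all probe sets.

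In submerged plants, 4 of 23 tested members were higher in M202(Sub1) (17.4%) and 7 lower (30.4%), beside 10.6% higher and 10.1% lower over all probe sets. With the 60th percentile filter, 5 members were higher and 8 lower, beside 18.1% and 17.3% of all probe sets tested. The 4 higher ones were CIPK12 by 1.75 ± 0.18 (limma adjusted p = 0.00394), CIPK24 by 0.76 ± 0.08 (adjusted p = 0.00473), CIPK29 by 0.62 ± 0.07 (adjusted p = 0.00588) and CIPK23 by 0.31 ± 0.07 (adjusted p = 0.032). CIPK16 was lowest relative to M202, at -1.55 ± 0.13 (adjusted p = 0.00195), and CIPK17 followed at -1.12 ± 0.21 (adjusted p = 0.0209). CIPK1, CIPK31, CIPK25, CIPK14 and CIPK10 were lower by a difference of -0.62 to -0.35. CIPK6 differed by -0.94 ± 0.31 and did not pass (adjusted p = 0.103), but did without the submerged M202 replicate 1, at -1.39 (adjusted p = 0.0124). Without the submerged M202 replicate 2, the CIPK6 difference was -0.49 (adjusted p = 0.124).

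Several of these calls did not outlast the loss of 1 array. CIPK10 lost its call without any of the 4 submerged arrays (adjusted p = 0.0538 to 0.0937), and CIPK17 without any of the 6 arrays other than the non-submerged M202 ones (adjusted p = 0.0546 to 0.0948). CIPK1 lost its call without any M202 array or the submerged M202(Sub1) replicate 2 (adjusted p = 0.0664 to 0.104). CIPK23 kept its call without the submerged M202 replicate 1 and lost it without any other array (adjusted p = 0.0556 to 0.134). CIPK14 kept its call without the submerged M202 replicate 2 and lost it without any other array (adjusted p = 0.0799 to 0.165). Relative to the spike-ins the CIPK23 difference was 0.06 (adjusted p = 0.539).

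Some members could be checked with further probe sets of the same gene. CIPK10 had 4, all called lower in both genotypes, from -1.51 to -1.15 in M202 and from -2.04 to -1.42 in M202(Sub1). Between submerged genotypes the CIPK10 probe set second by mean was not called, at -0.22 (limma adjusted p = 0.518), and the others were lower. The third passed the interaction test at -0.53 (adjusted p = 0.0262), and the others did not. The second probe set of CIPK7 had larger changes than the first, -1.41 in M202 (limma adjusted p = 0.00207) and -1.29 in M202(Sub1). CIPK23 rose and CIPK31 fell on both of their probe sets in each genotype, and CIPK12 fell on both in M202 and was called on neither in M202(Sub1). Their interactions did not pass on the second probe set, with 0.47 for CIPK12 (adjusted p = 0.319), 1.01 for CIPK23 (adjusted p = 0.0774) and 0.04 for CIPK31 (adjusted p = 0.98). CIPK2 rose on 2 of its 3 probe sets, and the remaining one lay at 2.22 to 2.70 on all arrays. The second probe set of CIPK32 lay at 2.24 to 2.37 on all arrays and showed no called change. Over the 7 genes, all tested probe sets gave the same call in 4 for M202, 5 for M202(Sub1) and 3 for the interaction. Those 3 were CIPK2, CIPK7 and CIPK32, whose interaction was called on no probe set.

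**Figure D4:**
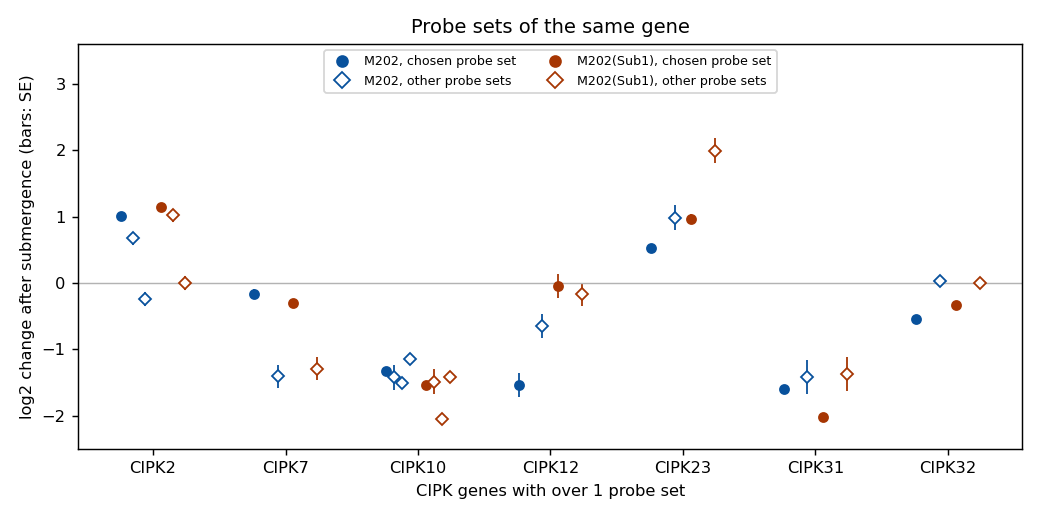
Log2 change after submergence (vertical axis, bars of 1 SE) for each probe set of the 7 CIPK genes with more than 1 (horizontal axis), in M202 and in M202(Sub1). The 4 probe sets of CIPK10 lie together between -2.04 and -1.15, whereas the 2 of CIPK7 lie apart in both genotypes.

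In the gene order of the RefSeq assembly ASM3414082v1, 4 pairs of CIPK genes lie next to each other or 1 coding gene apart. CIPK29 and CIPK2 are adjacent on chromosome 7, and CIPK29 fell while CIPK2 rose in both genotypes. CIPK30 and CIPK12 are adjacent on chromosome 1, where CIPK30 was at the floor and CIPK12 fell in M202. The partners of CIPK16 on chromosome 9 (CIPK27) and of CIPK5 on chromosome 1 (CIPK13) are not analysed here.

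The CBL calcium sensors, the activating partners of the CIPKs, moved in both directions. Of 7 tested CBL genes, 3 rose, 1 fell and 3 did not pass in M202, and 2 rose, 3 fell and 2 did not pass in M202(Sub1). The shares over all probe sets tested were 22.9% higher and 20.0% lower in M202 and 27.7% higher and 21.2% lower in M202(Sub1), so 2 of 7 higher (28.6%) is about the background. CBL9 rose by 2.45 ± 0.13 in M202 and 1.89 ± 0.13 in M202(Sub1), its arrays going from 6.53 to 6.90 without submergence to 8.71 to 9.21 with it. The CBL9 probe set has a suffix that marks probes that may also bind other transcripts, which was not tested. CBL4, whose Arabidopsis counterpart SOS3 acts with SOS2 in salt tolerance, changed by -3.24 ± 0.26 in M202 and, in M202(Sub1), by -3.59 ± 0.26, from 8.25 to 8.87 down to 4.86 to 5.61. The change of CBL3 was 0.60 in M202 and 0.89 in M202(Sub1). CBL10 changed by 0.12 in M202 (limma adjusted p = 0.381) and by -0.43 in M202(Sub1), a call lost without either non-submerged M202(Sub1) array or the submerged M202(Sub1) replicate 1 (adjusted p = 0.0592 to 0.0764). No CBL gene passed the interaction test by limma, beside 6.36% higher and 5.93% lower over all probe sets. With only 7 genes, none called is near that share. Of the 7, 5 had an unadjusted p below 0.05, a count that was not compared with all probe sets. The median CBL change was 0.12 in M202 and 0.01 in M202(Sub1), against 0 over all probe sets.

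The genes around CIPK15 in the sugar starvation pathway were measured, although CIPK15 is not analysed here. SNRK1A, the kinase downstream of CIPK15, read 11.07 and 10.98 on the non-submerged M202 arrays, 10.82 and 10.72 on the submerged M202 arrays, 11.00 and 10.95 on the non-submerged M202(Sub1) arrays, and 10.95 and 11.07 on the submerged M202(Sub1) arrays. It changed by -0.25 ± 0.06 in M202 (limma adjusted p = 0.0239) and by 0.03 ± 0.06 in M202(Sub1) (adjusted p = 0.738), and on the spike-in scale by -0.36 in M202(Sub1). The M202 call was lost without any non-submerged array or the submerged M202 replicate 2 (adjusted p = 0.0519 to 0.115). MYBS1, the activator of alpha-amylase genes, changed by 0.36 ± 0.07 in M202 (adjusted p = 0.0124) and by 0.80 ± 0.07 in M202(Sub1) (adjusted p = 0.000501). The M202 call of MYBS1 was lost without the non-submerged M202 replicate 1 or either submerged M202 array (adjusted p = 0.0508 to 0.066).

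MYBS2, a repressor of the same genes, fell from 13.15 and 13.12 to 10.84 and 10.77 in M202 and from 13.03 and 13.01 to 11.12 and 11.08 in M202(Sub1). The submerged M202 arrays were the lowest, and the fall was smaller in M202(Sub1), with an interaction of 0.42 ± 0.04 (limma adjusted p = 0.00756). MYBS3, a further repressor, rose by 0.53 in M202 and 0.58 in M202(Sub1). AMY1.3, the alpha-amylase gene also called RAMY3D, lay at 2.22 to 2.65 on all 8 arrays and passed in neither genotype (adjusted p = 0.173 and 0.32).

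Other kinases of the SnRK group and calcium-dependent kinases were set beside the family, and their counts stand against 22.9% higher and 20.0% lower over all probe sets in M202 and 27.7% and 21.2% in M202(Sub1). The SnRK1 genes OSK3 and SNRK1B rose 2.01-fold and 2.14-fold in M202 and 3.36-fold and 3.33-fold in M202(Sub1), and their probe sets belong to 1 sequence cluster and may share transcripts. Of 10 SnRK2 genes, which act in abscisic acid and osmotic stress signalling, 3 rose, 2 fell and 5 did not pass in M202, and 5 rose and 5 fell in M202(Sub1). SAPK7 had the largest SnRK2 change, -3.12 in M202 and -3.17 in M202(Sub1), and SAPK3 rose by 0.99 and 1.60. SAPK6 rose by 0.81 and 1.28, and SAPK9 changed by 0.11 in M202 (limma adjusted p = 0.72) and rose by 1.45 in M202(Sub1). In the interaction test, 3 of 10 SnRK2 genes (30.0%), SAPK3, SAPK6 and SAPK9, passed with a higher response in M202(Sub1). So did 1 of 3 SnRK1 genes (33.3%), OSK3, beside 6.36% higher over all probe sets. The calls of these SAPK genes were lost when most single arrays were left out. Of 15 tested calcium-dependent protein kinase genes, which sense calcium within the kinase itself, 10 rose, 2 fell and 3 did not pass in M202, and 10 rose, 4 fell and 1 did not pass in M202(Sub1). CPK24 rose by 1.71 and 1.59, CPK18 by 1.37 and 1.70 and CPK17 by 1.31 and 1.65, and CPK12 changed by -1.57 and -1.62. The median change of these kinases was 0.57 in M202 and 0.62 in M202(Sub1). None of the 15 passed the interaction test by limma, beside 6.36% higher and 5.93% lower over all probe sets.

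Transport and oxidase genes known as CBL-CIPK targets were measured for 7 genes. Of these, 3 rose (42.9%), 2 fell (28.6%) and 2 did not pass in each genotype, beside 22.9% higher and 20.0% lower over all probe sets in M202 and 27.7% and 21.2% in M202(Sub1). AKT1, the potassium channel activated by CIPK23, read 6.95 and 6.85 on the non-submerged M202 arrays, 8.51 and 8.46 on the submerged M202 arrays, 7.28 and 6.95 on the non-submerged M202(Sub1) arrays, and 8.88 and 8.89 on the submerged M202(Sub1) arrays. All submerged arrays lay above all controls, and AKT1 rose by 1.59 ± 0.11 in M202 (limma adjusted p = 0.000259) and by 1.77 ± 0.11 in M202(Sub1) (adjusted p = 0.000136). HAK1, a high-affinity potassium transporter, rose by 2.83 ± 0.36 in M202 and in M202(Sub1) by 4.21 ± 0.36. Its non-submerged M202(Sub1) arrays read 5.42 and 4.31, and with 1 array left out its interaction ran from 0.83 to 1.94. The probe sets of AKT1 and HAK1 have a suffix that marks probes that may also bind other transcripts, which was not tested. The ammonium transporter AMT1-1 rose by 0.96 and 1.00. TPKB, a vacuolar potassium channel, changed by -2.63 and -2.32, to a level of 2.22 to 2.40 close to the floor. No gene of this list passed the interaction test by limma, beside 6.36% higher and 5.93% lower over all probe sets, which is near that share for 7 genes. Of the 7, 2 had an unadjusted p below 0.05, a count not compared with all probe sets.

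**Figure D5:**
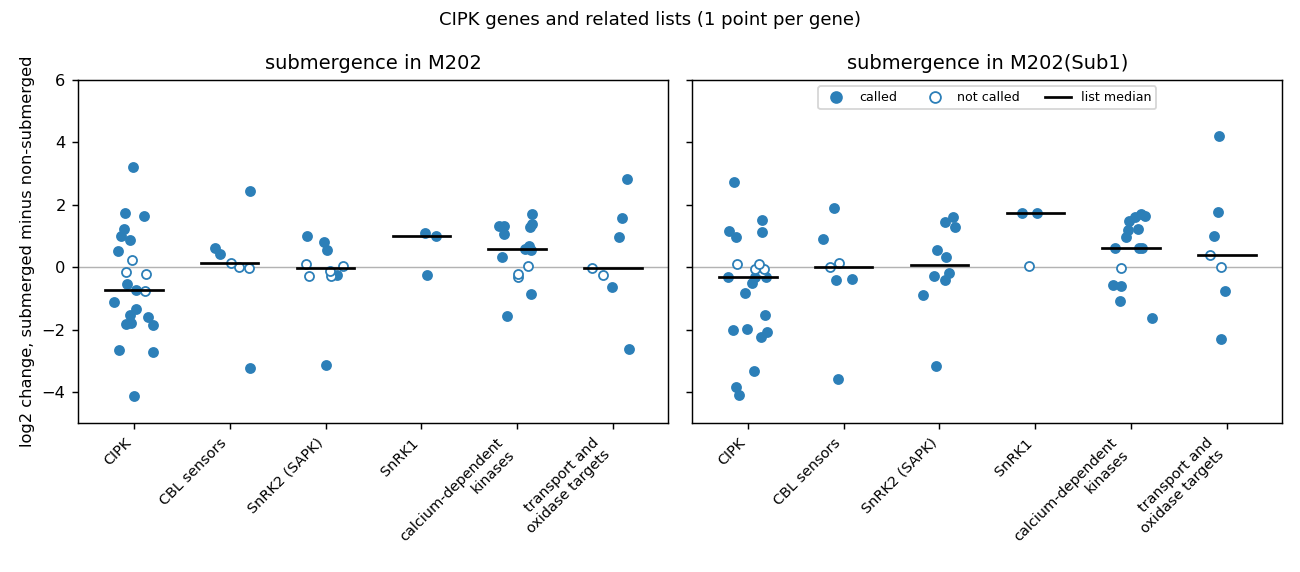
Log2 change after submergence (vertical axes) of each gene of the CIPK family and of the related lists (horizontal axes), in M202 and in M202(Sub1), with filled points for called genes and a line at each list's median. The CIPK medians lie at -0.72 and -0.32, those of the calcium-dependent kinases at 0.57 and 0.62.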

How the data were processed

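Messenger RNA was measured on 8 arrays in 4 groups of 2, grouped by the sample titles. The authors deposited 1 table of log2 levels per probe set, and GCRMA and MAS5 are the tools listed in the submitters' processing notes, with neither role nor version. The sources used here give no genome build. Of 57258 probe sets that are no controls, 22436 were paired with 1 gene, 95 with several and 34727 with none listed. Gene names came from the platform annotation and the RefSeq gene table. The deposited values were used unchanged.

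The comparisons were fitted with limma 3.58.1 in R 4.3.3 (lmFit and eBayes with an intensity trend, 1 coefficient per group over all 8 arrays, Benjamini-Hochberg adjustment) over the 34355 probe sets whose mean reached the 40th percentile. The 4 residual degrees of freedom limit the precision. Sums and figures were made with Python 3.11.15, pandas 2.3.3 and numpy 2.4.6. The fit was tested on simulated data. Every member with a probe set was accounted for, and from each related list up to 4 called genes with the largest change after submergence were named, with the whole sugar pathway list. The members and lists were chosen with earlier results of these data known. Alternatives were no filter, a 60th percentile filter, quantile normalization, spike-in centring, 2 other variance models, the second probe set, a replicate block and leaving out each array.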

Additional observations from a re-analysis of the deposited data

Results flagged for a closer look

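The 8 members below stood out because the test of the difference between the genotypes' submergence responses passed for them by limma. The values are the log2 response in M202(Sub1) minus that in M202. CIPK16 had -1.87 and CIPK17 -1.54, both having risen in M202 and not been called in M202(Sub1). CIPK31 had -0.43 and CIPK25 -0.40, having fallen by more in M202(Sub1). CIPK23 had 0.44 and CIPK24 0.67, having risen by more in M202(Sub1). CIPK29 had 0.80, having fallen by less in M202(Sub1), and CIPK12 had 1.48, having fallen in M202 and not been called in M202(Sub1). Of these, CIPK16, CIPK25 and CIPK29 passed under every alternative run. They have 1 probe set each, so a second one could not be tried.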

How the results depend on the processing

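After submergence, 17 of 19 called members in M202 (not CIPK21 and CIPK32) and 13 of 18 in M202(Sub1) (not CIPK7, CIPK11, CIPK21, CIPK29 and CIPK32) stayed called in the same direction under every alternative run. Of the 11 genotype calls in submerged plants, 4 did so (CIPK16, CIPK24, CIPK25 and CIPK29), and of the 8 interaction calls, 3 did. CIPK16, CIPK24, CIPK25 and CIPK29 have 1 probe set each, so the second probe set alternative could not be run for them. CIPK12 and CIPK31 lost their genotype call in submerged plants only on the second probe set. The interaction count went from 8 (4 higher, 4 lower) to 3 (1 higher, 2 lower) with no filter and to 5 (2 higher) on the second probe sets. The shares over all probe sets tested also fell with no filter, from 6.36% to 2.31% higher and from 5.93% to 2.32% lower. Beside them stood 4.35% and 8.7% of the 23 members that passed the filter on low values. With no filter CIPK30 was included as well. On the spike-in scale the interaction count was 2 higher and 9 lower (8.7% and 39.1% of 23), beside 3.06% and 12.5% of all probe sets tested. With any 1 array left out, fewer interaction calls were left, among the members and over all probe sets alike. In submerged plants the genotype count of 11 went to 7 (2 higher) on the second probe sets. The lower calls there went from 7 to 12 on the spike-in scale (52.2%, beside 41.3% of all probe sets tested). Leaving out any 1 array left fewer genotype calls in submerged plants, among the members and over all probe sets. In non-submerged plants leaving out 1 array gave 0 to 1 in all and in each direction.

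Among values called before or after the change of setting, those that changed sign were CIPK32 after submergence in M202 on its second probe set (0.021), the CIPK31 interaction on its second probe set (0.0407), CIPK2 between submerged genotypes on the spike-in scale (-0.19) and SNRK1A after submergence in M202(Sub1) on that scale (-0.36). A further 87 changes of sign, over all results and settings, were of values called in neither, such as CIPK5, CIPK21 and CIPK7 in the interaction. The spike-in scale also moved the share of higher genotype calls in submerged plants over all probe sets from 51.1% to 10.2% and that of interaction calls from 51.8% to 19.7%. The causes were not tested.

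Replicate numbers were shared between groups, but deviations of same-numbered arrays correlated at 0.008 to 0.178 and passed 0.1 in 1 of 6 pairs of groups, so the numbers were not taken to pair the samples. With a replicate block, 4 interaction calls were left (2 higher, 2 lower), beside 5.5% higher and 5.08% lower over all probe sets tested. CIPK12 (limma adjusted p = 0.0509), CIPK17 (0.0544), CIPK31 (0.0702) and CIPK23 (0.0754) were no longer called. Signal close to the floor limits what can be said of CIPK20, CIPK30 and AMY1.3.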
